A study of Mus musculus with 6 samples.

Results

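CDK inhibitor genes and known target genes of p53 were followed in Braf-mutant mouse melanoma cells (line 4434) after 20 days of partial reprogramming. The 10 genes were Cdkn1a, Cdkn1b, Cdkn1c, Cdkn2a, Cdkn2b, Mdm2, Ccng1, Phlda3, Tnfrsf10b and Sesn1. They were represented by every probe set that the platform annotation gives to exactly 1 of these symbols, which was 20 of 45037 probe sets other than array controls, and 10 of 18193 genes. Both groups consisted of 4434 cells transduced with a polycistronic lentiviral vector for Oct4, Sox2, Klf4 and a blasticidin resistance gene under a tetracycline-responsive element, together with a second vector for a constantly expressed transactivator. The + dox cells received doxycycline, were selected with blasticidin and grew in reprogramming medium; the − dox cells carried both vectors and received no doxycycline. The paper describes the medium of the − dox cells only as lacking doxycycline, so whether medium or selection also differed is not clear. Drug, vector genes and any such difference therefore cannot be told apart. Each group held 3 arrays, all from day 20, of 1 cell line. Whether the arrays within a group stem from independent cultures was not stated, and p-values therefore reflect just the spread between arrays, which may be technical.

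CDK inhibitors slow the cell cycle by acting on cyclin-dependent kinases. Cip/Kip proteins (the products of Cdkn1a, Cdkn1b and Cdkn1c) bind complexes of cyclins with their kinases, while INK4 proteins (from Cdkn2a and Cdkn2b) bind Cdk4 and Cdk6 and so keep the retinoblastoma protein active. Cdkn2a also encodes Arf in another reading frame, a protein that holds back Mdm2, the ubiquitin ligase that limits p53. The transcription factor p53 responds to DNA damage and oncogene activity and switches on Cdkn1a, Mdm2, Ccng1, Phlda3, Tnfrsf10b and Sesn1. In the pigment cell lineage, loss of CDKN2A is well known in familial and sporadic melanoma, and growth arrest of naevi with mutated BRAF is linked with INK4 expression. The study measured proliferation by EdU incorporation and reported that it was significantly lower in reprogrammed cells. The comparison here asks whether RNA of genes that restrain the cell cycle differed.

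Promoter windows of p53 target genes are shown first, because p53 is known to act through a short DNA element and because these genes did not all differ in the same direction between the groups. RefSeq (GRCm38.p6) gave 11 start sites, each with 250 bases before and 50 after it, for 8 of the 10 genes; Cdkn1c and Tnfrsf10b had no entry in the table used. The p53 decamer, the 10-base unit of which a full response element holds a pair, was searched by its consensus, which reads the same on either strand. It was found in 4 of the 11 windows, against 8.36% of all 32851 RefSeq windows of this length. The 11 windows include those of Cdkn1b, Cdkn2a and Cdkn2b, which were not named as p53 targets above and held no decamer. The other genes were taken as known p53 targets. A higher share could follow from that choice and is no result of these data. Capitals mark the decamers.
Cdkn1a (chr17:29090729-29091028, plus strand): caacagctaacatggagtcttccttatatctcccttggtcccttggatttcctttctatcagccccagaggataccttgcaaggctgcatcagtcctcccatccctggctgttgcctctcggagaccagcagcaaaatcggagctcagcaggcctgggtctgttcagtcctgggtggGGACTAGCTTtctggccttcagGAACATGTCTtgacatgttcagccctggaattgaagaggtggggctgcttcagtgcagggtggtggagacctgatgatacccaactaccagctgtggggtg
Mdm2 (chr10:117710709-117711008, minus strand): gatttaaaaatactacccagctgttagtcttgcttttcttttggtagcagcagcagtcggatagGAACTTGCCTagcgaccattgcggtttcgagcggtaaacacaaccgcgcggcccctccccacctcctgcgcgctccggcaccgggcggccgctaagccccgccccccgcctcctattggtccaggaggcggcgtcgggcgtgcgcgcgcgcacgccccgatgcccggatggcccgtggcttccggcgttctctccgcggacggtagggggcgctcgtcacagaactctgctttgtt
Ccng1 (chr11:40755237-40755536, minus strand): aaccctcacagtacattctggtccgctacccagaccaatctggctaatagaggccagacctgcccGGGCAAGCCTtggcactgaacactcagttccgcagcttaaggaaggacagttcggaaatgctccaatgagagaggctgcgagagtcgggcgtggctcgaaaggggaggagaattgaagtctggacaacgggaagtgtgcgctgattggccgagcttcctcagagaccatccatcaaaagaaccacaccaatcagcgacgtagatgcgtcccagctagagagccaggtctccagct
Sesn1 (chr10:41887189-41887488, plus strand): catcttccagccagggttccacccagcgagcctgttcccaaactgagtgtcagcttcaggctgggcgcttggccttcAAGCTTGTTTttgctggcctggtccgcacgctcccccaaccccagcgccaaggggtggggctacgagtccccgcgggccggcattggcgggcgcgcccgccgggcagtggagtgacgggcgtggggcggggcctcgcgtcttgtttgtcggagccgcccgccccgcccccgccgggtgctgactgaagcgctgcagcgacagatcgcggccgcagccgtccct
The Cdkn1a window belongs to the upstream of its 2 start sites and holds 2 decamers, at 73 and 51 bases before the start and 12 bases apart. A window with 2 or more was rare, at 0.359% of all windows. In Cdkn1a the bases directly after the second decamer (tgacatgttc) miss the consensus at their first base only and so are not marked. Which of these stretches form a full element was not tested. Mdm2 and Ccng1 had 1 decamer each, at 186 and 185 bases before the start, and Sesn1 had 1 before one of its 2 start sites. A match is a description of the letters and not evidence of binding, and sites outside the windows were not searched.

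No gene passed the test when each was represented by its probe set with the highest mean (limma, 0 of 10 with an adjusted p under 0.05, where 4.87% of all genes passed). Before adjustment 5 of 10 had a p under 0.05, against 21.7% of all genes. In 6 genes the groups did not overlap, 4 of them higher and 2 lower in + dox cells, against 26.9% of all genes. Over all 20 probe sets limma called 2, against 2.53% of all probe sets, and both belonged to Sesn1 and were lower in + dox cells. Levels below are log2 RMA values with SD over 3 arrays, and each change is the mean of + dox arrays less that of − dox arrays, in log2 units with the SE of the fit.

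**Figure D1:**
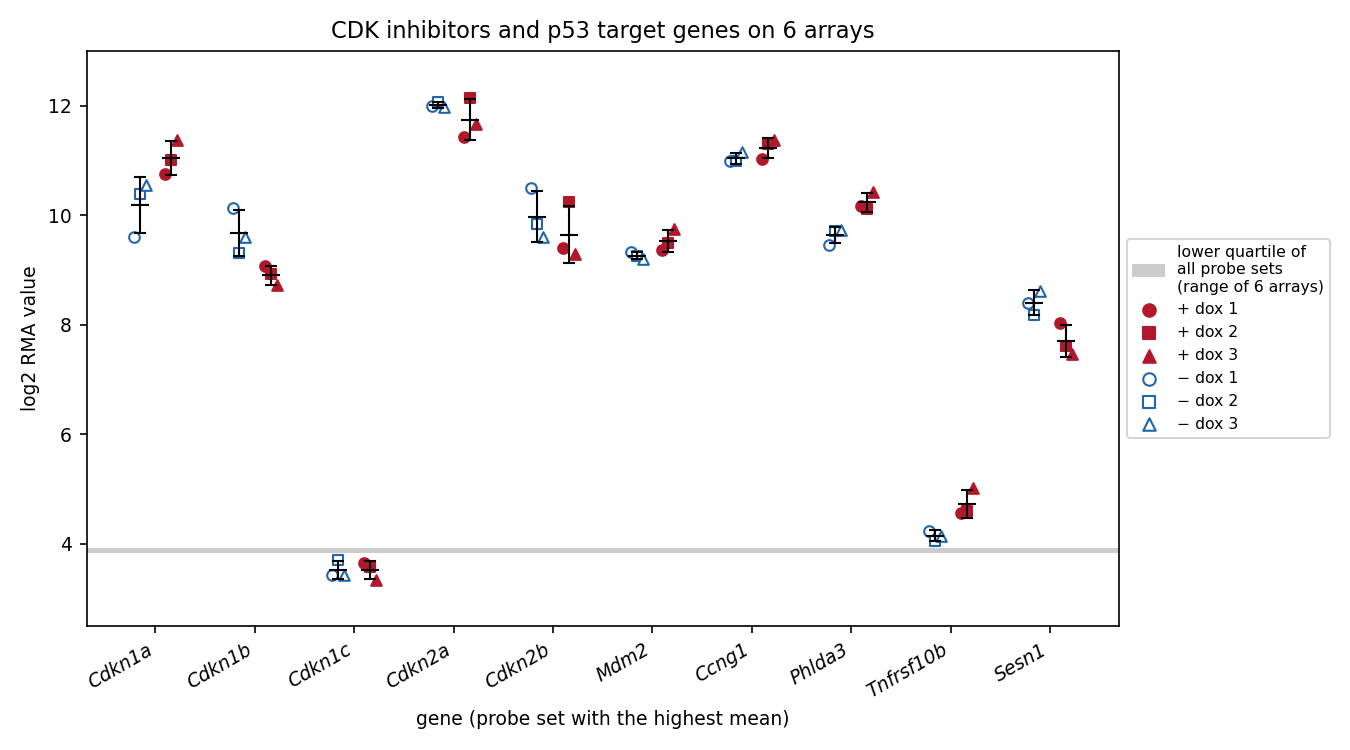
Levels of the 10 genes (horizontal axis) in log2 RMA units (vertical axis), each by its probe set with the highest mean; + dox arrays are filled in red and − dox arrays open in blue, with black bars for the mean ± SD of 3 arrays and a grey band for the lower quartile of all probe sets. For Phlda3 the + dox arrays (10.11 to 10.42) sit above the − dox arrays (9.46 to 9.72), while Cdkn1c sits below the grey band in every array.

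Among the Cip/Kip genes Cdkn1a stood higher and Cdkn1b lower in + dox cells, and Cdkn1c lay near the floor of the scale. Cdkn1a encodes p21, the classical p53-induced inhibitor. It stood at 10.75, 11.01 and 11.37 in + dox arrays 1, 2 and 3 and at 9.60, 10.39 and 10.55 in − dox arrays 1, 2 and 3. The groups did not overlap, but − dox 1 lay far below the other − dox arrays. The change was 0.86 (SE 0.28, 1.82-fold, 95% confidence interval 0.19 to 1.54) and did not pass limma (adjusted p = 0.137). A second probe set of Cdkn1a, at 10.31, 10.63 and 10.83 against 9.17, 10.10 and 10.09, gave nearly the same difference (0.80, SE 0.28). Both probe sets therefore placed all + dox arrays above all − dox arrays, with the lowest value in − dox 1.

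Cdkn1b encodes p27, an inhibitor that accumulates in resting cells. Its values were 9.06, 8.93 and 8.72 in + dox and 10.13, 9.30 and 9.59 in − dox arrays. The groups did not overlap, with the highest value in − dox 1. The change was −0.77 (SE 0.22, interval −1.30 to −0.24, limma adjusted p = 0.104). The other probe set of Cdkn1b had lower values, between 5.30 and 6.40, with a change of −0.40 and groups that overlapped by − dox 2 (5.86) against + dox 1 (5.89). Cdkn1c, an imprinted gene for the inhibitor p57, lay between 3.34 and 3.70 in all arrays, below the lower quartile of the arrays (3.84 to 3.90 over all probe sets), with a mean of 3.52 ± 0.16 in both groups. At this level a fall could hardly show, and the interval of the change was −0.31 to 0.31.

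The INK4 genes Cdkn2a and Cdkn2b are neighbours on chromosome 4, with no other protein-coding gene between them, and the groups overlapped in both. Cdkn2a stood at 11.42, 12.14 and 11.67 in + dox and at 11.99, 12.07 and 11.97 in − dox arrays. The − dox arrays lay close together (12.01 ± 0.05), while + dox arrays spread around them (11.74 ± 0.37), with + dox 1 lowest and + dox 2 above every − dox array. The change was −0.27 (SE 0.19, interval −0.71 to 0.18, limma adjusted p = 0.476). The annotation gives 1 probe set for the gene and does not say which of the INK4 and Arf transcripts it detects, so the value belongs to the locus.

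Cdkn2b, the gene of p15, stood at 9.40, 10.23 and 9.28 in + dox and 10.49, 9.83 and 9.59 in − dox arrays. The groups overlapped, since + dox 2 lay above − dox 2 and − dox 3. Its change of −0.33 had a wide interval (−1.11 to 0.44, SE 0.32). Without − dox 1 it was −0.07, and without + dox 2 it was −0.63. The remaining INK4 genes and the CDK phosphatase gene Cdkn3 did not pass either (0 of 3, 1 with an unadjusted p under 0.05). Cdkn2d, which encodes the inhibitor p19 of the INK4 family, had non-overlapping groups and a change of 0.81 (limma adjusted p = 0.0625). Cdkn2c, the gene of p18, had −0.39 with 9.43 in − dox 1 against 10.52 and 10.76 in the other − dox arrays. Cdkn3 had 0.56, with − dox 1 at 6.66 against 8.48 and 8.38.

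Array − dox 1 thus stood apart in Cdkn1a, Cdkn1b, Cdkn2b, Cdkn2c and Cdkn3, and also in genes of cycling cells. Of 24 such genes 19 were lowest in − dox 1. Their median deviation from the mean of the 6 arrays was −0.88 in − dox 1, 0.44 and 0.40 in − dox 2 and 3, and 0.39, −0.39 and 0.11 in + dox 1, 2 and 3. Over all genes the arrays' median distance from the rest of their group was 0.13 to 0.19, largest for − dox 1 and next for + dox 1 (0.16). Limma called 1140 genes without − dox 1 and 1650 without + dox 1, beside 886 with all 6 arrays. Without − dox 1 the change of Cdkn1a was 0.57 (limma adjusted p = 0.135) and that of Cdkn1b −0.54 (0.0892). The part of the state of − dox 1 in the differences was not tested.

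**Figure D2:**
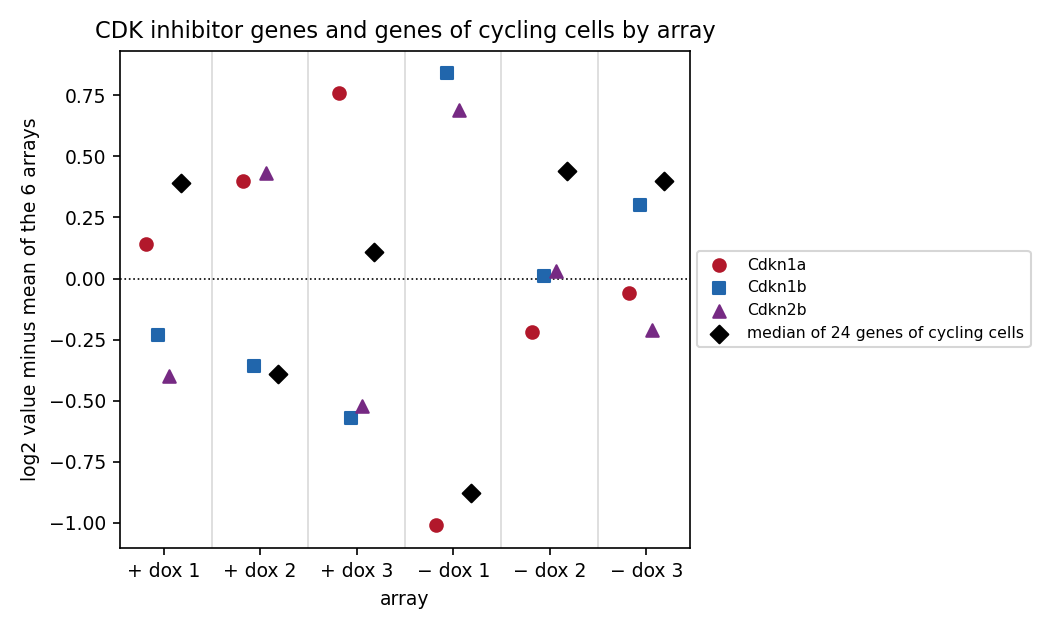
Log2 value minus the mean of the 6 arrays (vertical axis) for Cdkn1a, Cdkn1b and Cdkn2b and the median of 24 genes of cycling cells, by array (horizontal axis); each point is 1 array. In − dox 1 Cdkn1a (−1.01) and the genes of cycling cells (−0.88) are lowest, while Cdkn1b (0.84) and Cdkn2b (0.69) are highest.

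The p53 feedback gene Mdm2 and the cyclin G gene Ccng1 showed small differences toward + dox cells that varied with the probe set. The probe set of Mdm2 with the highest mean stood at 9.36, 9.49 and 9.75 in + dox and 9.33, 9.26 and 9.20 in − dox arrays, a change of 0.27 (SE 0.12, interval −0.03 to 0.57, limma adjusted p = 0.276). Its second probe set stood at 8.69, 8.63 and 8.62 against 8.38, 8.24 and 8.06, a change of 0.42 (SE 0.11). In both the groups did not overlap, but the gap in the first was 0.03 between + dox 1 and − dox 1. The third probe set lay at 3.13 to 3.50, under the lower quartile, and had −0.02.

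Ccng1 encodes cyclin G1, a cyclin that p53 induces and that works with a phosphatase on Mdm2. Its probe set with the highest mean overlapped between groups, at 11.03, 11.29 and 11.37 in + dox and 10.98, 10.98 and 11.15 in − dox arrays (0.19, SE 0.12, limma adjusted p = 0.433). The other 2 probe sets did not overlap. One stood at 9.97, 10.02 and 9.85 against 9.23, 9.55 and 9.37 and had a change of 0.56 (SE 0.12, interval 0.29 to 0.84, limma adjusted p = 0.0639), and the other had 0.22 (SE 0.10). The same gene thus gave 1.14-fold or 1.48-fold depending on the probe set, and none of the 3 passed.

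Phlda3 and Tnfrsf10b stood higher in + dox cells without overlap and did not pass the test. Phlda3 encodes a small membrane-binding protein that restrains Akt. It stood at 10.16, 10.11 and 10.42 in + dox and at 9.46, 9.71 and 9.72 in − dox arrays, with all + dox arrays above all − dox arrays. The change of 0.60 (SE 0.13, 1.52-fold, interval 0.29 to 0.91) had the smallest p of the 10 genes and narrowly missed the threshold (limma adjusted p = 0.0524). It passed when the arrays were centred on their medians (0.61, adjusted p = 0.0475). Over the single arrays left out its change lay between 0.50 and 0.66, and it did not pass (limma adjusted p from 0.0606 to 0.168).

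Tnfrsf10b encodes the mouse death receptor for the ligand TRAIL. It stood at 4.55, 4.60 and 5.02 in + dox and 4.23, 4.04 and 4.14 in − dox arrays, a change of 0.59 (SE 0.15, interval 0.23 to 0.94, limma adjusted p = 0.0784). Its second probe set stood at 4.08, 4.44 and 4.61 against 3.98, 3.90 and 3.80, a change of 0.48 (SE 0.15). The groups did not overlap in either, and + dox 3 was highest in both. In − dox cells these levels lay near the arrays' lower quartile, which makes the size approximate.

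Sesn1 stood lower in + dox cells, unlike the other 5 p53 target genes among the 10, and 2 of its 4 probe sets passed limma. The gene encodes sestrin 1, a stress protein that restrains mTORC1 signalling and takes part in antioxidant defence. One probe set stood at 6.53, 6.82 and 6.65 in + dox and at 7.56, 7.44 and 7.73 in − dox arrays. The change was −0.91 (SE 0.12, interval −1.20 to −0.62, limma adjusted p = 0.0229). Another stood at 6.64, 6.56 and 6.23 against 7.33, 7.21 and 7.56 and fell by 0.89 (SE 0.15, adjusted p = 0.0395). In both, all + dox arrays lay below all − dox arrays, and the fall was 1.88-fold and 1.85-fold.

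The probe set of Sesn1 with the highest mean, at 8.02, 7.60 and 7.47 against 8.40, 8.17 and 8.62, had the same direction without overlap (−0.70, SE 0.18) and missed the test (adjusted p = 0.0848 over genes). The fourth was dimmer than the lower quartile, at 3.04 to 3.46 (−0.17). The call of the gene thus depended on how it was represented. With the mean of all its probe sets Sesn1 fell by 0.67 (limma adjusted p = 0.0355), and with the one of largest variance by 0.89 (0.0328). Both probe set calls were lost without + dox 2, + dox 3, − dox 2 or − dox 3 (adjusted p from 0.0697 to 0.146), and that of the second also without − dox 1 (0.0540) and with trended eBayes (0.0506), although the change stayed between −0.99 and −0.77.

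**Figure D3:**
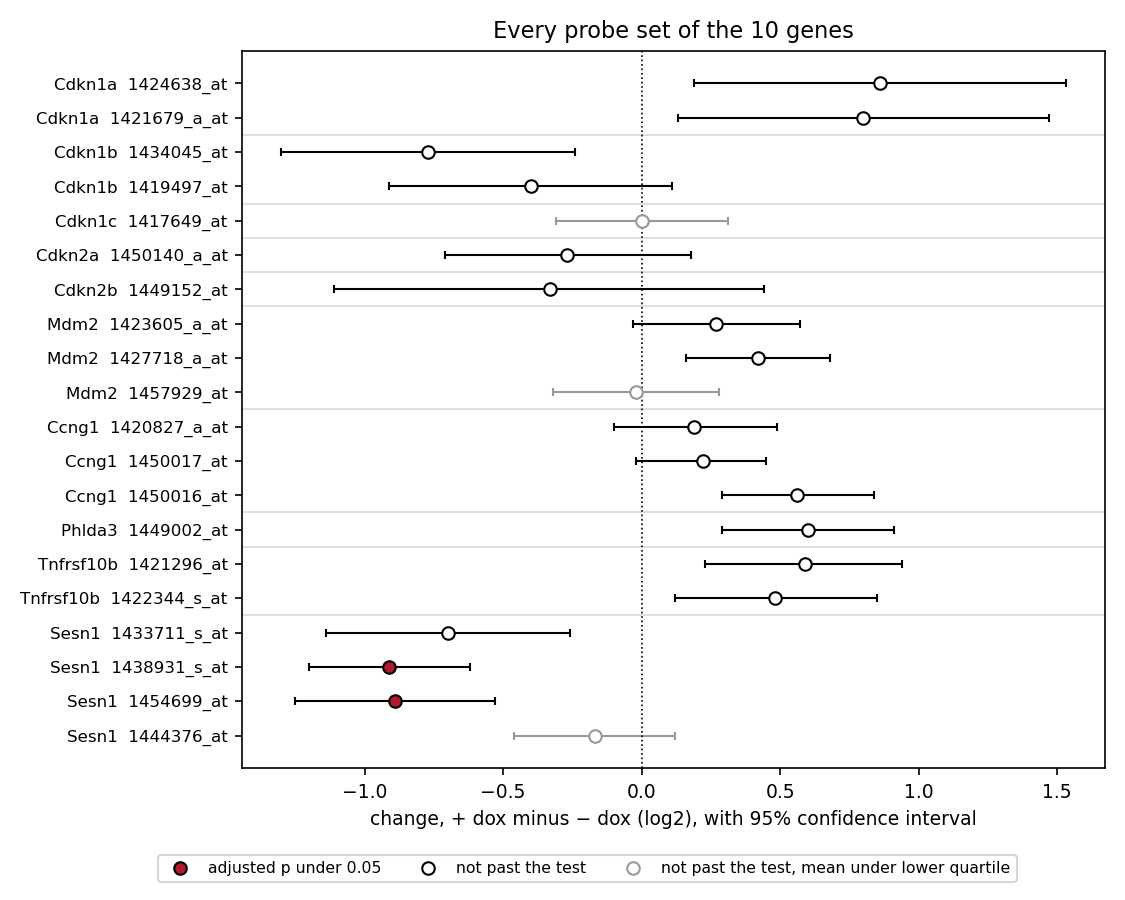
Change between + dox and − dox arrays on the log2 scale (horizontal axis, with the 95% confidence interval of the fit) for each of the 20 probe sets (vertical axis); red points passed the test, and grey open points had means below the lower quartile. Sesn1 has 2 red points at −0.91 and −0.89, while the others lie between −0.77 (Cdkn1b) and 0.86 (Cdkn1a).

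Of the 20 probe sets the groups did not overlap in 13 (9 higher and 4 lower in + dox cells), against 23.4% of all probe sets. Probe sets of 1 gene share their transcripts and are not independent of each other. Every non-overlapping probe set of Cdkn1a, Mdm2, Ccng1, Phlda3 and Tnfrsf10b was higher, and every one of Cdkn1b and Sesn1 was lower. The median change of the 10 genes was 0.10, beside 0.01 over all genes.

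Leaving out both arrays numbered 1, a setting chosen with earlier results of these data known, left 2 arrays a group and brought 5 of the 10 genes past limma, beside 20.1% of all genes. Cdkn1a rose by 0.72 (adjusted p = 0.0210), Tnfrsf10b by 0.72 (0.0249) and Phlda3 by 0.55 (0.0364), while Sesn1 fell by 0.86 (0.0158) and Cdkn1b by 0.62 (0.0301). Cdkn2a (−0.11), Cdkn2b (0.04), Cdkn1c, Mdm2 (0.39) and Ccng1 (0.26) did not pass. Among probe sets limma then called 7 of 20, against 11.4% of all: both of Cdkn1a, both of Tnfrsf10b and 3 of Sesn1. With 1 array left out at most 1 of the 10 genes passed, Sesn1 without + dox 1 (−0.86, limma adjusted p = 0.0316). In that setting 1650 of all 18193 genes passed.

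**Figure D4:**
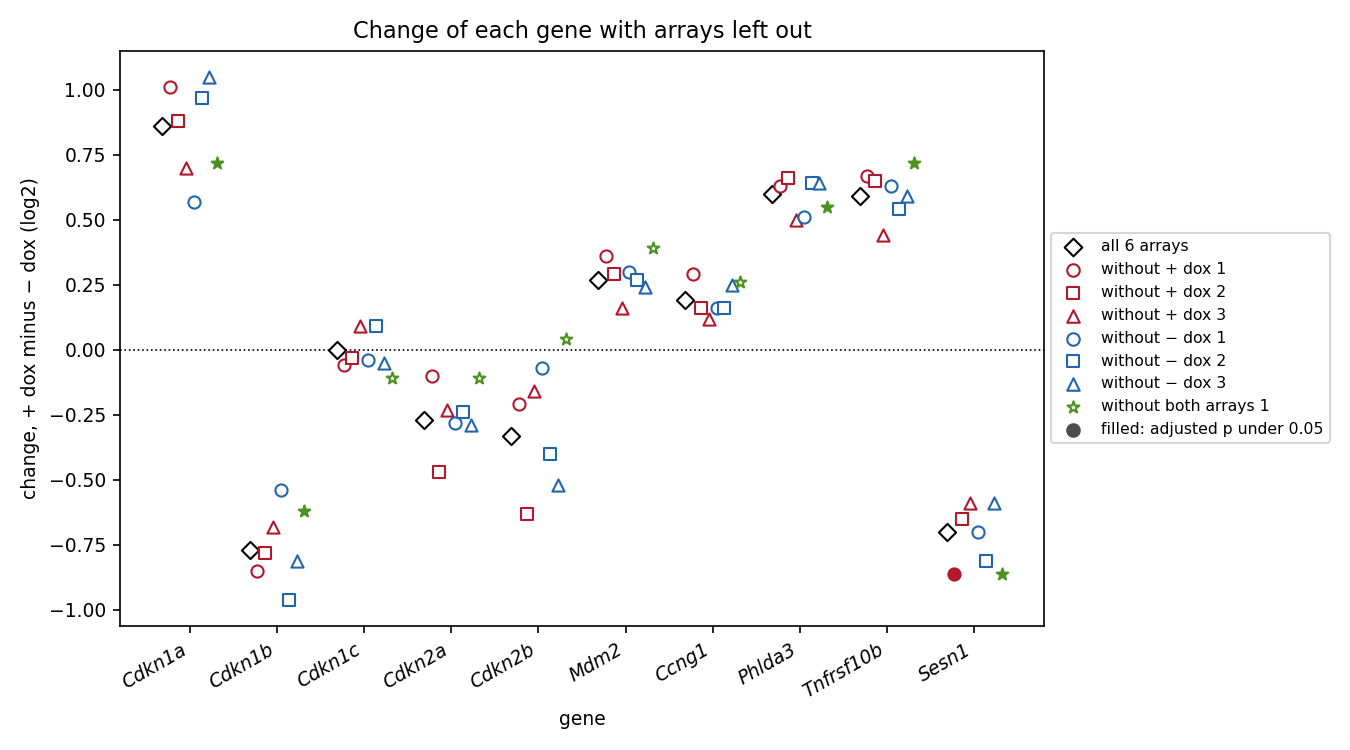
Change on the log2 scale (vertical axis) of each gene (horizontal axis) with all 6 arrays, with each array left out and with both arrays numbered 1 left out; filled symbols passed the test. Cdkn1a lies lowest without − dox 1 (0.57) and highest without − dox 3 (1.05), and Cdkn2b moves from −0.63 without + dox 2 to 0.04 without both arrays numbered 1.

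Among other known p53 targets, of 51 measured genes, 2 rose and 1 fell, beside 3.07% and 1.80% of all genes, and the median change was −0.04. Abcb1a, which encodes a drug efflux transporter, rose by 3.89 from 6.55, 5.53 and 4.40 to 7.88, 10.20 and 10.07 (limma adjusted p = 0.0431). Tigar, the gene of a regulator of glycolysis, rose by 0.88 (0.0325). Cpt1c, a member of the carnitine palmitoyltransferase family, fell by 0.94 (0.0145). The groups did not overlap in 8 genes that were higher and in 8 that were lower (beside 14.3% and 12.6% of all genes). These shares of non-overlapping genes lay near those of all genes and are no result about the list. Before adjustment 16 of the 51 had a limma p under 0.05, beside 21.7% of all genes. Whether the list differed as a set was not tested. Each of these 3 calls was lost when + dox 2, + dox 3 or − dox 3 was left out (adjusted p from 0.0702 to 0.142), and those of Abcb1a and Tigar also without − dox 2. That of Tigar was lost as well when its probe sets were averaged (0.66, adjusted p = 0.0728). Without both arrays numbered 1 limma called 25 of the 51 (12 higher and 13 lower), beside 20.1% of all genes.

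Genes that act on p53 or on the INK4 locus gave 0 calls in limma. Of 25 genes of the p53 family and its regulators 6 had an unadjusted p under 0.05, beside 21.7% of all genes. Trp53, the gene of p53 itself, was not among these 25. The damage kinase gene Atm had −0.52 (adjusted p = 0.0538), and Ppp1r13l, which encodes the p53 inhibitor iASPP, had 0.49 (0.0802) with 1 other probe set of the opposite sign. Of 18 regulators of the INK4 locus 5 had an unadjusted p under 0.05. The shares of both lists lay near that of all genes and are no result about the lists. Id1, which opposes Ets factors at that locus, had 1.76 (adjusted p = 0.0522), and the repressor gene Tbx2 had −0.56 (0.0649).

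The cyclins and kinases that the inhibitors act on, with Rb and E2F genes, also gave 0 calls of 27 in limma (median −0.12). Of these 2 had an unadjusted p under 0.05, beside 21.7% of all genes. The D-type cyclin gene Ccnd3 had −0.42 (adjusted p = 0.0959), with 2 other probe sets of the opposite sign, and the E-type cyclin gene Ccne1 had 0.88 (0.216), in which − dox 1 stood at 6.71 against 7.99 and 7.91. Without both arrays numbered 1 the list had 6 calls, all lower, beside 20.1% of all genes, and a median of −0.29. Of the 24 genes of cycling cells limma called 0, and 0 had an unadjusted p under 0.05. Their median was 0.13, with the spindle checkpoint gene Bub1b at −0.59 and the mitotic cyclin gene Ccnb2 at −0.53. Without both arrays numbered 1 their median was −0.47, and 9 fell and 0 rose, where limma called 20.1% of all genes. The direction of this list thus turned with these arrays.

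Genes linked with senescence gave 3 rises and 0 falls among 17, beside 3.07% and 1.80% of all genes. Ccl7, a chemokine gene, rose by 3.80 (limma adjusted p = 0.000439), the chemokine gene Ccl2 by 2.77 (0.00426) and Igfbp3, which encodes a binding protein of insulin-like growth factors, by 1.91 (0.0406). The calls of Ccl7 and Ccl2 held whichever array was left out; that of Igfbp3 held without + dox 1 and was lost without any other array (adjusted p from 0.0517 to 0.133) and when its probe sets were averaged (0.0510). The other 14 genes did not pass, and the list's median was 0.15. Among them Igfbp5, the gene of another such binding protein and named after its values were seen, had the largest change of the list (−5.12, adjusted p = 0.138). It stood at 11.26, 5.16 and 4.66 in + dox and at 11.98, 11.90 and 12.57 in − dox arrays. Without both arrays numbered 1 the list had 5 calls higher and 2 lower, beside 20.1% of all genes called.

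**Figure D5:**
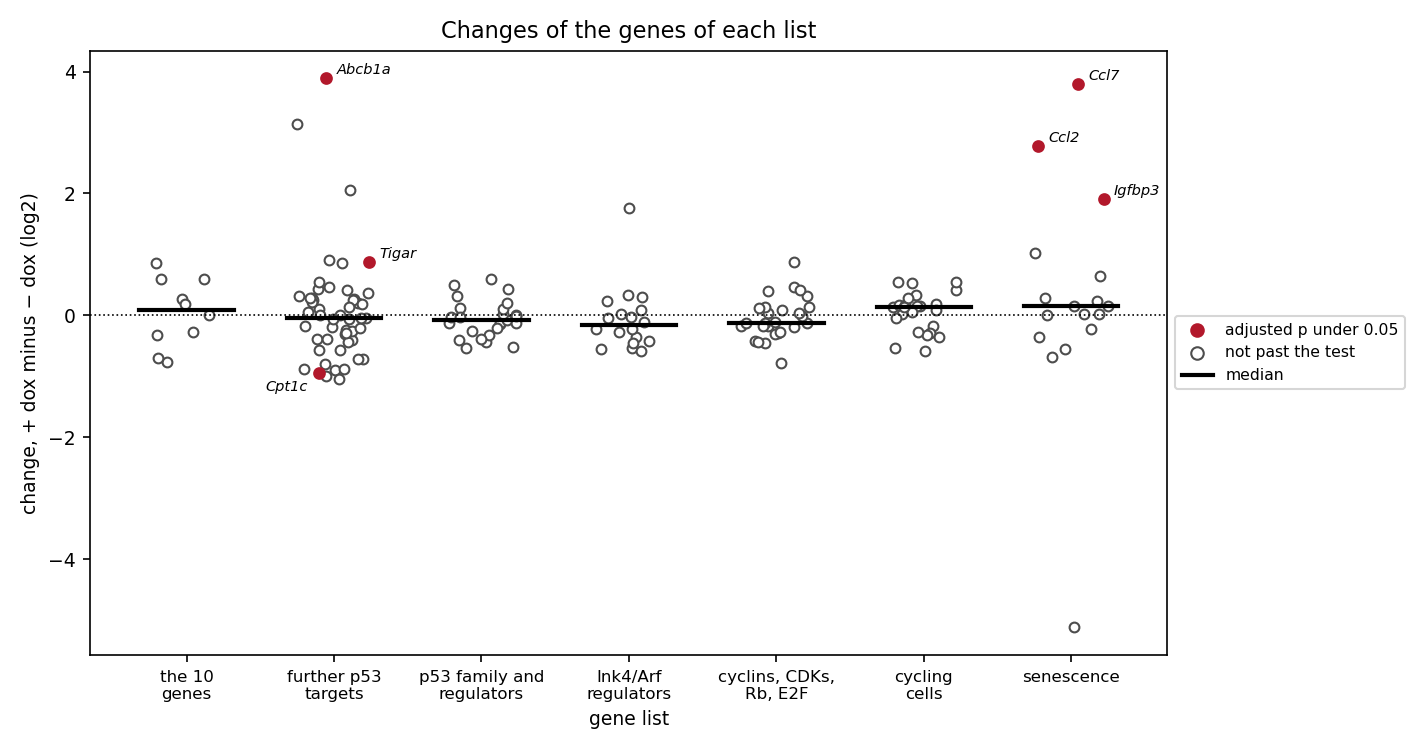
Change on the log2 scale (vertical axis) of each gene, by list (horizontal axis); red points passed the test, open points did not, and black lines are medians. For the lists shown, which leave out the 3 other CDK inhibitor genes and the cell type markers, the medians lie between −0.17 and 0.15, and the red points are Abcb1a, Tigar and Cpt1c among p53 targets and Ccl7, Ccl2 and Igfbp3 among senescence genes.

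By its 6 array values Phlda3 was most like Rec114, Nes, Tuba4a, Spata13 and Cybc1. The measure was the root mean square difference between values centred on each gene's mean, and it ran from 0.036 for Rec114 to 0.064 for Cybc1 over 18192 genes compared. Nes encodes the intermediate filament nestin and Tuba4a an alpha tubulin. Their changes, between 0.54 and 0.63, follow from that choice.

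The labelled cell type was checked against 7 melanocyte markers. Tyr, Tyrp1 and Mlana had means dimmer than the lower quartile in both groups (3.45 to 3.80), and means in + dox and − dox cells were 4.41 and 4.36 for Dct, 5.36 and 5.34 for Pmel and 6.34 and 6.23 for Sox10. Mitf, the master regulator of melanocytes, stood at 6.41, 6.83 and 6.17 in + dox and 8.15, 6.87 and 6.67 in − dox arrays (−0.76, limma adjusted p = 0.343), with − dox 1 highest. Enzymes of pigment synthesis were therefore at or near the floor of the scale in either group, and 0 of 7 markers passed limma (0 with an unadjusted p under 0.05). Markers of fibroblasts (8 measured), immune cells (7) and endothelial cells (8) gave 0 calls. At an unadjusted p under 0.05 were 2, 1 and 1 of them, beside 21.7% of all genes. Their mean levels overlapped between groups for fibroblasts (5.18 to 5.39 against 5.21 to 5.46) and immune cells (4.94 to 5.31 against 4.66 to 5.02), and for endothelial cells were 4.50 to 4.75 against 4.24 to 4.41. Keratinocyte markers gave 1 call of 7, the basal keratin gene Krt14 (3.67, limma adjusted p = 0.00173, 1 other probe set of the opposite sign), and their mean level was higher in every + dox array (5.41 to 5.53) than in any − dox array (4.75 to 4.90). Krt14 made up most of this difference, since Krt10 had 0.55 and the other 5 markers had changes between −0.05 (Krt5) and 0.09 (Lor). The smallest p among fibroblast markers was that of the matrix gene Dcn (0.85, limma adjusted p = 0.0525), followed by the collagen gene Col3a1 (−1.35, 0.102). The immune genes Cd74 and Itgam had −0.50 and 1.17, and the endothelial receptor genes Tek and Tie1 1.61 and 0.32. The part of other cell types in the differences above was not tested. In bulk RNA, a change in the number of cells of a kind and a change in RNA per cell cannot be told apart.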

How the data were processed

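Total RNA of 6 samples was hybridised to Affymetrix GeneChip Mouse Genome arrays, 3 per group. The deposited values are log2 expression values, which the authors obtained from the scanner files by RMA in Chipster; its version is not given in the sources used here. RMA forces equal distributions on the arrays and compresses low values. The table held 45101 probe sets with values from 2.08 to 14.44 and column medians of 5.33 to 5.37. The 64 array controls were left out, which left 45037 probe sets. The scale was read from the values and the use of RMA; scanner files were not used here.

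Symbols are those of the platform annotation; RefSeq (GRCm38.p6), matched by Entrez identifier, changed 0 of them. Of the 45037 probe sets, 34945 had 1 gene, 932 several and 9160 were not listed. Each of 18193 genes was represented by its probe set with the highest mean. Group means, with groups from the labels, were tested two-sided by limma 3.58.1 (R 4.3.3; lmFit, eBayes, a model of group alone, Benjamini-Hochberg over all genes or all probe sets, threshold 0.05). The method was tested on simulated data in which each value varied independently. A difference shared by many genes of 1 array was not simulated. The simulation therefore does not bear on how far the calls depend on single arrays. The number of arrays limits the precision.

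Members, gene lists and tests were chosen with earlier results of these data known. Lists held 55 further p53 targets (51 measured), 27 p53 family genes and regulators (25), 18 regulators of the INK4 locus, 27 cyclin, CDK, Rb and E2F genes, 25 genes of cycling cells (24), 21 senescence genes (17), 3 other CDK inhibitor genes and markers of 5 cell types, and were described by counts and medians. Named were the members, called genes of each list (in the p53 target list up to 6 in each direction, in other lists up to 3), the 2 with the smallest p in a list where fewer than 2 were called, and the 5 genes most like the member with the smallest p. The other melanocyte markers are named to check the label. The labels and methods do not state pairs, so numbers were not taken as pairs. Same-numbered arrays had correlations of their deviations of −0.12, −0.22 and 0.08, and arrays of unlike number −0.35 to 0.34. With 3 arrays a group these values cannot decide whether numbers mark pairs. Alternatives were a replicate block, other values per gene, dim probe set filters, trended or robust eBayes, requantiling, median centring, arrays left out and a threshold of 0.01. Figures were drawn with matplotlib 3.10.9.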

Additional observations from a re-analysis of the deposited data

How the results depend on the processing

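Counts of calls moved more than directions. With the replicate number as a block limma called 303 of all genes and 1 of the 51 other p53 targets. It called none of the 10 genes and 0 of their probe sets. The labels do not say whether a shared number marks a pair. The block ended both Sesn1 probe set calls (adjusted p = 0.0657 and 0.0932) and those of Abcb1a (0.116), Tigar (0.105) and Igfbp3 (0.110). With the mean of all probe sets, the probe set of largest variance or median centring 1 of the 10 genes was called. Of all 18193 genes limma called 788, 859 and 870 in these settings. The largest-variance choice also called 1 p53 regulator. Filters at 20% and 40%, the trended eBayes and median centring each called 1 INK4 regulator, and the trended eBayes called 1 probe set of the 10 genes. At an adjusted p under 0.01 the calls were 128 of all genes, 0 p53 targets and 0 probe sets of the 10 genes.

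Without both arrays numbered 1 the calls were 3649 of all genes, 5 of the 10 genes, 7 of their probe sets, 25 p53 targets, 8 p53 regulators, 4 INK4 regulators, 6 cyclin, CDK, Rb and E2F genes (all lower), 9 genes of cycling cells (all lower) and 7 senescence genes (5 higher, 2 lower). With single arrays left out the ranges were 118 to 1650 for all genes, 0 to 1 for the 10 genes, 0 to 4 for their probe sets, 0 to 9 for p53 targets, 0 to 2 for p53 regulators, 0 to 1 for INK4 regulators and 2 to 5 for senescence genes, while both other lists stayed at 0. The lowest counts over all genes came without − dox 3 and − dox 2, and the highest without + dox 1. Signs turned for Cdkn2b without both arrays numbered 1 (0.04 as gene and as probe set), Cdkn3 without − dox 1 (−0.03, in a range up to 0.88) and without both (−0.16), the dim Mdm2 probe set without + dox 1 (0.02) or − dox 3 (0.09, in a range from −0.10), and Sox10 with the probe set of largest variance (−0.01). The cause was not tested. The filters removed Cdkn1c and the other dim probe sets, so these have no value there. Signal near the floor of the scale limits Cdkn1c, Tnfrsf10b and the dimmest probe sets of Mdm2 and Sesn1.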
